A study of Homo sapiens with 4 samples.

Results

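The collagen genes were taken as the protein-coding genes whose symbol is COL, a number, A and a number, as in COL4A1. In the RefSeq annotation of GRCh38.p14, 44 of 19974 protein-coding genes on chromosomes 1 to 22 and X met this rule. They were divided by the assembly their chains form into 11 fibrillar genes, 8 genes of basement membrane collagens and 25 others. The others were 2 anchoring, 5 type VI, 3 short-chain, 10 FACIT (fibril-associated collagens with interrupted triple helices) and 3 transmembrane collagen genes, with COL26A1 and COL28A1 remaining. Collagen records were long, with a median of 144672 bp against 24170 bp over all protein-coding genes.

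Collagens are matrix proteins built from chains that wind into a triple helix. Fibrillar collagens form the banded fibrils of skin, bone, tendon and cartilage and come mainly from mesenchymal cells. Type IV collagen forms the network of basement membranes, and epithelial cells make part of it. Collagen XVII in hemidesmosomes and collagen VII in anchoring fibrils fasten basal epithelial cells to the matrix below.

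The chromatin was that of MCF10A, an immortalised human mammary epithelial cell line that does not form tumours and has basal features. All cells were kept in mammary epithelial growth medium containing 100 ng/ml cholera toxin, and no treatment was contrasted with another. Chromatin immunoprecipitation and sequencing gave 1 library each for H3K4me3 (trimethylated lysine 4 of histone H3, found at active and poised promoters), H3K27me3 (the mark of Polycomb repression) and H3K79me2 (set by DOT1L, and found in the first part of genes being transcribed). An input library of DNA without antibody is the remaining sample, and no peak list of it was analysed here. The design therefore allows each mark to be compared between genes, and the places of the marks to be set side by side, within this cell line. There are no replicates, so no value has an error and no difference was tested, and read depth is unknown. In a culture sampled as a whole, a weak mark in all cells and a strong mark in some of them cannot be told apart.

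Each value below rests on the authors' peaks. H3K4me3 and H3K27me3 were read in the window within 1000 bp of each end of a gene record, and H3K79me2 in the 5000 bp that run inward from each end. A mark was called where peaks filled 25% or more of its window at either end. Both ends were used because a start and strand were at hand for 32 of the 44 genes. The fold of a peak is the peak caller's enrichment over its background and serves to describe peaks within 1 list. Median peak length was 849 bp for H3K4me3, 213 bp for H3K27me3 and 666 bp for H3K79me2. The same covered share therefore does not mean the same for each mark, and counts of calls are set against all genes mark by mark. The cell type of the label was checked against markers, with H3K4me3 at 6 of 7 basal marker genes (7.05- to 23.8-fold), H3K79me2 at 6 and H3K27me3 at 0. TP63 had no call at an end, and H3K4me3 covered 8.46% and H3K79me2 21.4% of its record with 5000 bp on each side. Of 6 fibroblast markers, 3 (PDGFRA, PDGFRB and FAP) had H3K4me3, 2 (DCN and LUM) had H3K27me3 and FAP had H3K79me2 (59.4% of the window). The endothelial markers PECAM1 and CDH5 and the leukocyte marker PTPRC had no H3K4me3 call. PECAM1 had an H3K79me2 call (38.8% of the window, 2.75-fold), and H3K4me3 covered 14.9% of its record and flanks.

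Sequences at the starts of 9 collagen genes are shown because the results turn on these places. They are the stretches between the record ends of the COL4A1/COL4A2 and COL4A4/COL4A3 pairs, and the 250 bases before the starts of COL4A5, COL17A1 and COL7A1, which carried H3K4me3. For contrast, COL9A1 and COL25A1 are shown, which had no H3K4me3 at the start. All are from RefSeq, GRCh38.p14, written 5′ to 3′ on the strand given. Capitals mark every match, on either strand, to the GC box GGGCGG, the CCAAT box CCAAT, the TATA box TATAAA or the AP-1 motif TGANTCA.
COL4A1/COL4A2 (chr13:110307158-110307283, plus strand): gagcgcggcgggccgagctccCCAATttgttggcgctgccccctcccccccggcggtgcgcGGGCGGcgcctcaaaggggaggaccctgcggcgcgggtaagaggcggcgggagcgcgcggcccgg
COL4A4/COL4A3 (chr2:227164489-227164623, plus strand): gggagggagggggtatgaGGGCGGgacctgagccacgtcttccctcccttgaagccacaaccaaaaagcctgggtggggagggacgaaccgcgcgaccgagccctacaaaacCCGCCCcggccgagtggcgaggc
COL4A5 (chrX:108439588-108439837, plus strand): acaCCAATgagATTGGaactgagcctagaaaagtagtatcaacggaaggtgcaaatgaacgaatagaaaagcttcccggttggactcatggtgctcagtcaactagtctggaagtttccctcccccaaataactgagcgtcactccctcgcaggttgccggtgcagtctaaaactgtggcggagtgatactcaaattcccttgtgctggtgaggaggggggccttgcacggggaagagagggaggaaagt
COL17A1 (chr10:104085881-104086130, minus strand): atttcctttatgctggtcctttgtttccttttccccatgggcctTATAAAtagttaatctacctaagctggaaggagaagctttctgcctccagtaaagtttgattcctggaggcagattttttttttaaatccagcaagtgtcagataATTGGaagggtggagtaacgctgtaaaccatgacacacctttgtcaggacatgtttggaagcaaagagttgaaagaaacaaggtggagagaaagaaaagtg
COL7A1 (chr3:48595330-48595579, minus strand): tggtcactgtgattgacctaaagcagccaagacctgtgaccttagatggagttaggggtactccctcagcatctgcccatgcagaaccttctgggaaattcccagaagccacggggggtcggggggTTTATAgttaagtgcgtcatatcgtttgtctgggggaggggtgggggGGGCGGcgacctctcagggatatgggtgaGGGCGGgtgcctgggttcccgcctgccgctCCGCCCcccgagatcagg
COL9A1 (chr6:70303085-70303334, minus strand): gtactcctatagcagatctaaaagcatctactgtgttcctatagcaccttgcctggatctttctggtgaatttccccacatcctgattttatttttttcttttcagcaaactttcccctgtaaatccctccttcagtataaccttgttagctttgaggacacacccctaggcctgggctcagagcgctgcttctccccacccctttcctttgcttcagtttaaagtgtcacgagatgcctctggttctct
COL25A1 (chr4:109302659-109302908, minus strand): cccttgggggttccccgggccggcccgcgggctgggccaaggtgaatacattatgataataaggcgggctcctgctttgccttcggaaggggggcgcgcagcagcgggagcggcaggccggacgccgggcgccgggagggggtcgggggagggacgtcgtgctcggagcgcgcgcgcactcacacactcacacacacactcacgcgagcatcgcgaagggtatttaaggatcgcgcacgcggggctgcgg
The stretch between COL4A1 and COL4A2 is rich in CpG, with 20 CpG in 126 bases. The COL17A1 sequence has 1 CpG in 250 bases and a match to the TATA box. COL25A1 has 32 CpG and no capital, and COL9A1 has 2 CpG and no capital.

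H3K4me3 was called at 24 of the 44 collagen genes (54.5%), against 67.9% of all protein-coding genes. H3K27me3 was called at 14 (31.8%), against 9.1% of all genes, and H3K79me2 at 11 (25%), against 50.9%. The collagen genes thus lay below the share of all genes for H3K4me3 and H3K79me2 and above it for H3K27me3. Among the 10991 genes with a record over 20000 bp, whose median of 58494 bp is still below that of collagen genes, 75.6% had H3K4me3, 8.98% H3K27me3 and 58.4% H3K79me2. No set matched to collagen genes in length was compared. With peaks of q at most 0.05 alone, 3 collagen genes kept H3K27me3 (6.82%, against 5.52% of all genes), while 23 kept H3K4me3 (against 66.3%) and 10 kept H3K79me2 (against 43.3%). Of the 14 genes called for H3K27me3, 10 held a peak of −log10 q of at least 1.3 in the called window, and 7 of these 10 lost the call because such peaks alone filled less than 25% of it. COL4A5, COL4A6, COL5A1 and COL9A2 held no such peak there.

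Other rules moved the counts, and under each of them the share of collagen genes lay below that of all genes for H3K4me3 and H3K79me2 and above it for H3K27me3, the last on 2 to 4 genes where the rule was strict. With −log10 q of 5 or more, 21 collagen genes had H3K4me3 (47.7%, against 63.7% of all genes) and 2 had H3K79me2 (4.55%, against 12.6%). With a fold of 5 or more, H3K4me3 was called at 19 (43.2%, against 62.8%), H3K27me3 at 2 (4.55%, against 1.69%) and H3K79me2 at 0 (against 3.56%). Where 1 covered bp sufficed, 27 had H3K4me3 (61.4%, against 71.5%), 22 had H3K27me3 (50%, against 24.7%) and 13 had H3K79me2 (29.5%, against 60%). Where 50% had to be covered, the shares were 36.4% (against 62.4%) for H3K4me3, 9.09% (against 4.28%) for H3K27me3 and 20.5% (against 45.3%) for H3K79me2. In windows of 2000 bp around an end, or 10000 bp inward, they were 45.5% (against 65.8%), 27.3% (against 8.28%) and 25% (against 49.2%) in the same order of marks. At annotated starts alone, 17 of 32 had H3K4me3 (53.1%, against 70.7%), 10 had H3K27me3 (31.2%, against 7.46%) and 9 had H3K79me2 (28.1%, against 54.9%). Joining H3K27me3 peaks that lay up to 3000 bp apart, a rule chosen after seeing the data, gave 18 calls (40.9%, against 16.2%).

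**Figure D1:**
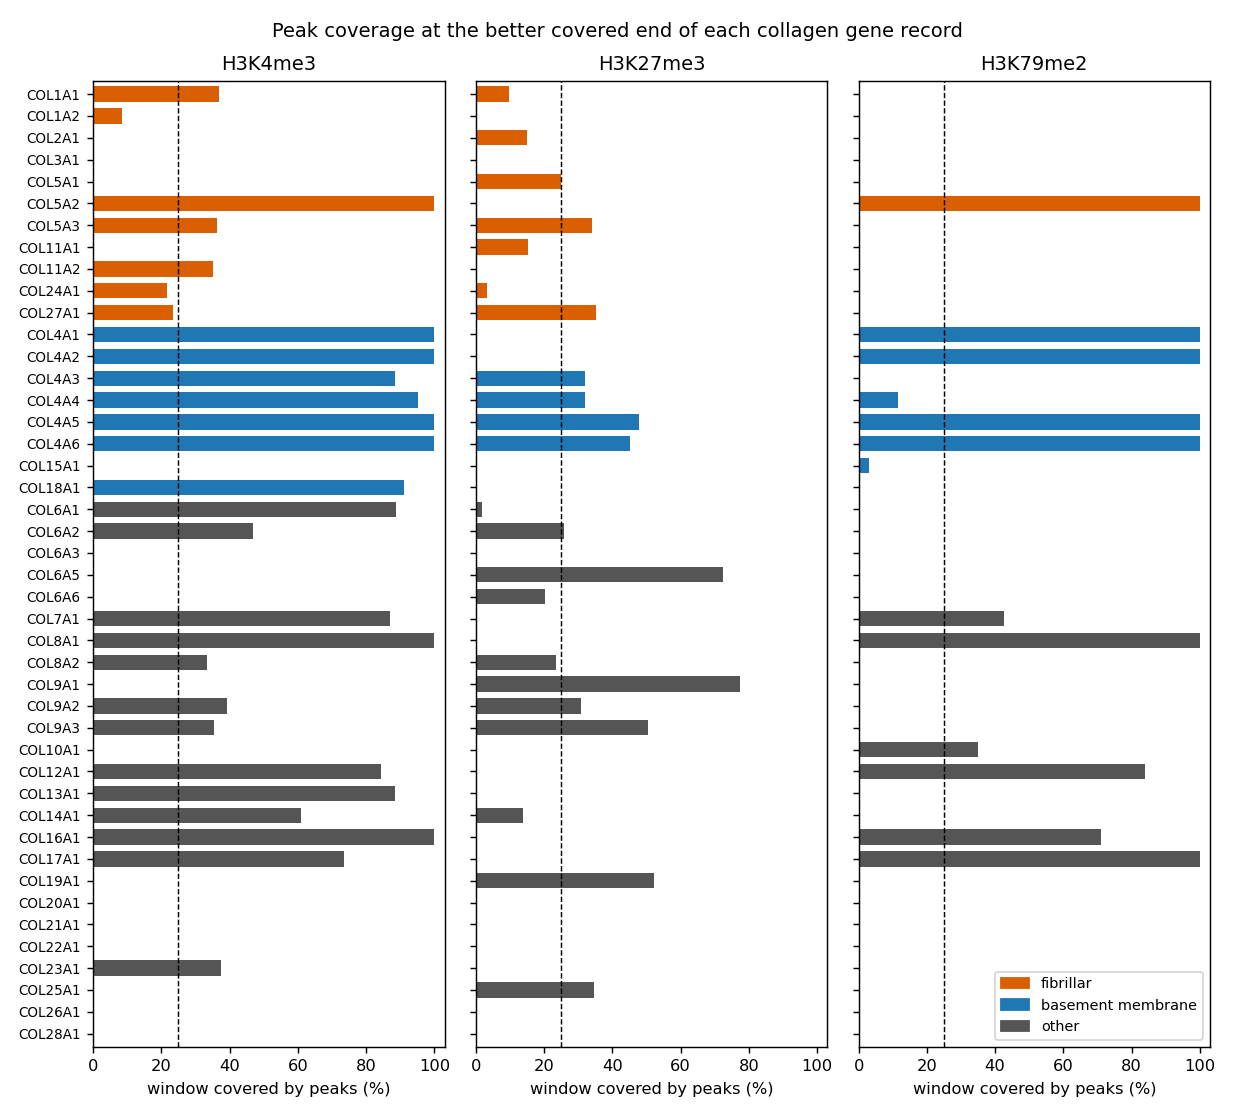
Share of the end window covered by peaks (%, 1000 bp around the end for H3K4me3 and H3K27me3, 5000 bp inward for H3K79me2) at the better covered end of each of the 44 collagen genes, with bars coloured by class and the dashed line at the 25% that makes a call. H3K4me3 is called at 7 of 8 basement membrane genes (87.5%, against 67.9% of all genes). H3K79me2 is called at 1 of 11 fibrillar genes, COL5A2 (9.09%, against 50.9%).

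The marks divided the collagen genes into a few combinations. H3K4me3 with H3K79me2 and without H3K27me3, the commonest combination over all genes at 48.9%, was found at 8 collagen genes: COL4A1, COL4A2, COL5A2, COL7A1, COL8A1, COL12A1, COL16A1 and COL17A1. H3K4me3 with H3K27me3 and without H3K79me2 was found at 6 (COL4A3, COL4A4, COL5A3, COL6A2, COL9A2 and COL9A3), against 3.87% of all genes. H3K27me3 alone was also found at 6 (COL5A1, COL6A5, COL9A1, COL19A1, COL25A1 and COL27A1), against 4.74%. COL4A5 and COL4A6 had all 3 marks, as did 0.461% of all genes. H3K4me3 alone was found at 8 (COL1A1, COL6A1, COL8A2, COL11A2, COL13A1, COL14A1, COL18A1 and COL23A1), against 14.6%, and H3K79me2 alone at COL10A1, against 1.51%. H3K27me3 with H3K79me2 and without H3K4me3 was found at 0 collagen genes, against 0.03%. No call was made at 13, against 25.9%: COL1A2, COL2A1, COL3A1, COL6A3, COL6A6, COL11A1, COL15A1, COL20A1, COL21A1, COL22A1, COL24A1, COL26A1 and COL28A1. Of the 5 collagen genes with no H3K27me3 peak over the record and 5000 bp on each side, 4 (COL7A1, COL12A1, COL16A1 and COL17A1) belonged to the combination of H3K4me3 with H3K79me2, and the remaining gene was COL1A2.

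Basement membrane collagens had the highest median fold of the strongest H3K4me3 peak in the record, at 14.8. The medians were 8.09 for fibrillar and 5.66 for other genes, and the ranges overlapped. The strongest peak of COL17A1, of the other class, reached 18.4-fold. H3K4me3 was called at 7 of the 8 basement membrane genes (87.5%, against 67.9% of all genes), including type IV pairs that share a peak. H3K27me3 was called at 4 (50%, against 9.1%), none of which kept it with peaks of q at most 0.05. H3K79me2 was also called at 4 (50%), near the 50.9% of all genes. The exception for H3K4me3 was COL15A1, the gene of a proteoglycan collagen of basement membrane zones, whose strongest peak (4.80-fold) had its midpoint 31448 bp downstream of the start. COL18A1, whose product releases endostatin, had a peak of 2181 bp and 10.7-fold over 91.0% of the window at its start and neither of the other marks. An lncRNA, BNAT1, has an end 1197 bp inside this record and an annotated start within 1000 bp of the peak. The marks of both cannot be told apart there.

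The 6 type IV genes form 3 pairs, each with starts that face away from each other across a short gap. Between record ends the gap was 126 bp for COL4A1 and COL4A2, 135 bp for COL4A4 and COL4A3, and 379 bp for COL4A6 and COL4A5. The annotated start of COL4A4 lies inside its record, so it is farther than this from the start of COL4A3. Each pair therefore shares its window, and its genes share their calls. The pairs differed in the marks they carried.

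COL4A1 and COL4A2, whose chains make the network found in nearly all basement membranes, shared an H3K4me3 peak of 3926 bp and 21.4-fold (chr13:110305456-110309381). This fold was higher than that of 98.4% of all H3K4me3 peaks and was the highest inside any collagen record. H3K79me2 covered the whole window between the starts, in a peak of 20274 bp and 2.63-fold, and H3K27me3 covered 0% of it. H3K79me2 went on into both genes from the shared start. With each record cut into 3 equal lengths, it covered 72.0%, 16.0% and 1.19% of COL4A1 from the start onwards, and 78%, 37.4% and 0.404% of COL4A2. COL4A2 also held 3 H3K4me3 peaks of 4.54-, 5.85- and 6.15-fold downstream, at 40599, 12858 and 90202 bp from its start.

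COL4A3 and COL4A4 encode chains of the kidney glomerular basement membrane. They shared an H3K4me3 peak of 2529 bp and 18.2-fold (chr2:227162866-227165394), higher than 94.4% of the list. H3K27me3 peaks, 3 in number with the strongest at 3.85-fold, covered 30.0% of the window around their starts. H3K79me2 covered 0% of that window and 0.658% of the record and flanks of COL4A3. For COL4A4 it covered 1.96% of the record and flanks, most of it in the part farthest from the start, where the record overlaps the gene RHBDD1. In H3K4me3 fold this pair was thus near COL4A1 and COL4A2, and in H3K79me2 it was not.

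COL4A5 and COL4A6 on chromosome X encode the remaining type IV chains, found together in basement membranes of skin and smooth muscle. They shared an H3K4me3 peak of 13806 bp and 11.5-fold (chrX:108434846-108448651), the widest inside any collagen record. An H3K79me2 peak of 78730 bp and 3.35-fold spanned both starts. It and further peaks covered 99.1%, 42.1% and 2.04% of COL4A5 in 3 equal lengths from the start, and 77.1%, 54.3% and 7.77% of COL4A6. H3K27me3 lay in the same stretch, with 4 peaks of up to 2.86-fold over 45.8% of the window around the starts, the strongest with −log10 q of 1.0. It did not decline along the genes, covering 16.7%, 19.3% and 13.8% of COL4A5 and 17.4%, 14.9% and 16.0% of COL4A6. H3K27me3 was more widespread on chromosome X as a whole, where peaks covered 6.17% of the span, against 3.52% on the autosomes, and where 15.9% of genes were called, while 52.1% of the genes there had H3K4me3 and 34.7% H3K79me2. The part of the chromosome in these calls was not tested. Whether the marks lie on the same copies of the chromosome or in the same cells cannot be told apart from separate libraries.

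**Figure D2:**
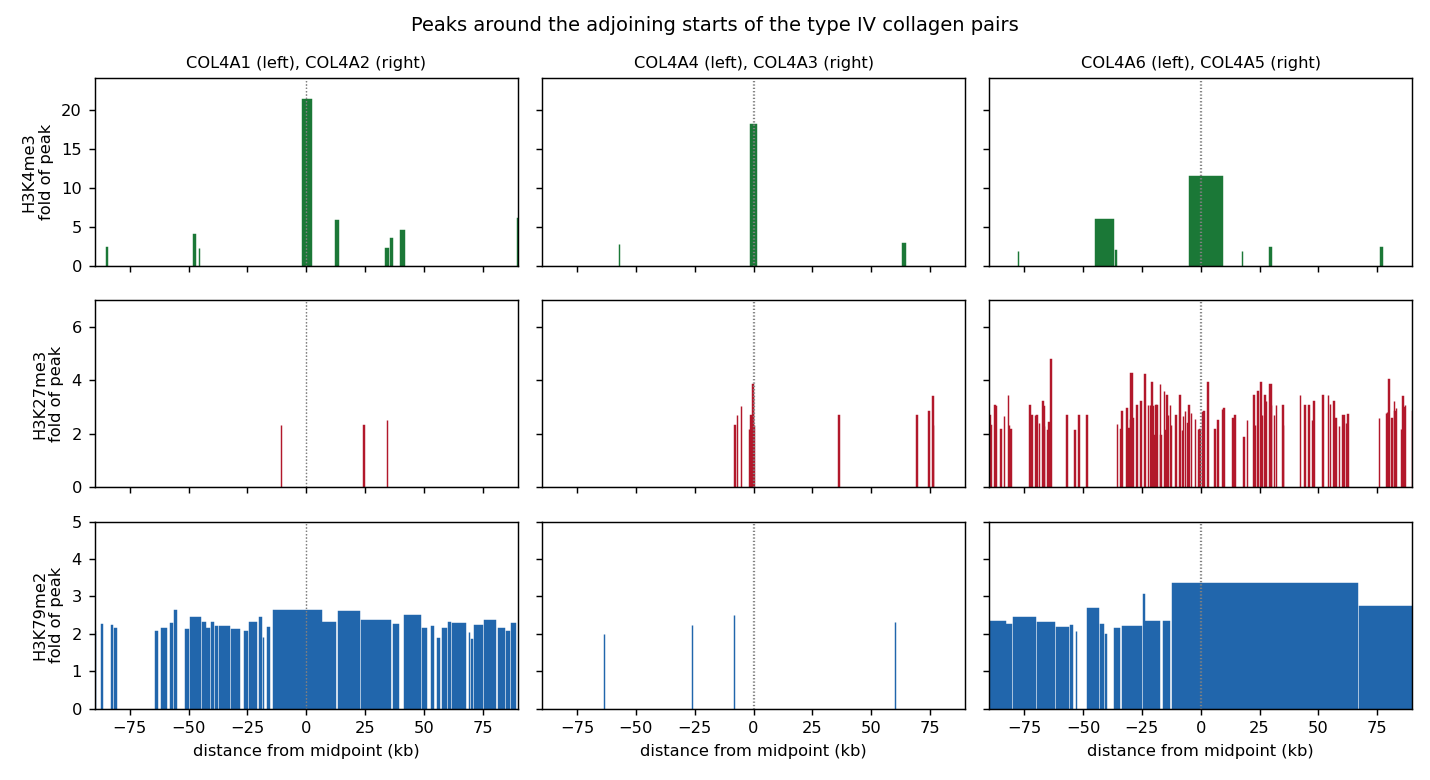
Peaks of each mark (rows) around the adjoining starts of the 3 type IV pairs (columns), drawn to scale by distance from the midpoint between the record ends (kb), with a thin outline that keeps the narrowest peaks visible, with the height of each block giving the fold of the peak and dotted lines the record ends. All 3 pairs have an H3K4me3 peak over the starts (21.4-, 18.2- and 11.5-fold), COL4A4 and COL4A3 have no H3K79me2 there, and COL4A6 and COL4A5 have all 3 marks.

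The collagens that anchor basal epithelial cells both had H3K4me3 and H3K79me2, and neither had an H3K27me3 peak. COL17A1, the gene of the transmembrane collagen of hemidesmosomes, had an H3K4me3 peak of 5453 bp and 18.4-fold (chr10:104080900-104086352), higher than 94.8% of the list. Its H3K79me2 had the highest fold inside any collagen record, with a peak of 10118 bp and 4.66-fold over 100% of the window inward from the start. H3K79me2 covered 70.8%, 3.82% and 1.47% of the gene in 3 equal lengths from the start. COL7A1, the gene of the anchoring fibril, had H3K4me3 at 7.99-fold over 87.1% of the window and H3K79me2 at 3.13-fold over 42.7%. Its H3K79me2 covered 27.4% of the part nearest the start and 0% beyond. Their sequences, shown above, differ in CpG (1 for COL17A1 and 11 for COL7A1), and each holds a match to TATAAA. The match in COL7A1 is on the opposite strand. Distance of a match from the start was not taken into account, so a working TATA box is not shown.

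A further 3 collagen genes had the same combination of marks at an end with no other protein-coding gene near it. COL12A1, a FACIT that binds to the surface of collagen I fibrils, had H3K4me3 at 13.4-fold in a peak of 6920 bp, and H3K79me2 at 2.93-fold over 83.8% of its window. COL16A1, a FACIT found in skin and other tissues, had H3K4me3 at 8.40-fold over 100% of the window and H3K79me2 at 2.97-fold over 71.1%. COL8A1, the gene of a short-chain collagen of vessel walls and the corneal basement membrane, had H3K4me3 at 11.2-fold in a peak of 6151 bp at its lower-coordinate end. H3K79me2 there formed a peak of 36078 bp and 2.60-fold and covered 93.6% of the adjoining part of the gene when cut into 3 equal lengths. An lncRNA, LOC124909401, has an end 86 bp inside this end, so the marks of both cannot be told apart there.

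A pair of H3K79me2 calls coincided with other genes. COL5A2 had H3K4me3 (11.5-fold) and H3K79me2 (4.48-fold) over 100% of both windows at its higher-coordinate end, where the record of WDR75 begins 363 bp away. The H3K4me3 peak of 8087 bp and the H3K79me2 peak of 16386 bp are the same as those at WDR75. COL10A1, the collagen gene of hypertrophic cartilage, lies wholly within the record of NT5DC1. NT5DC1 had H3K4me3 at 18.4-fold and H3K79me2 at 3.09-fold, while COL10A1 had no H3K4me3 call and H3K79me2 at 2.04-fold over 35.1%, a call lost at q at most 0.05. From peaks, the marks of these collagen genes and those of their neighbours cannot be told apart.

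Fibrillar collagens had H3K4me3 and H3K79me2 called at record ends less often than all genes. Of 11 genes, 4 had H3K4me3 (COL1A1, COL5A2, COL5A3 and COL11A2), or 36.4%, against 67.9% of all genes. H3K27me3 was called at 3 (COL5A1, COL5A3 and COL27A1), or 27.3%, against 9.1%, and H3K79me2 at COL5A2 (9.09%, against 50.9%). Inside the record, 8 of the 11 held an H3K4me3 peak. Where 1 covered bp at an end sufficed, H3K4me3 was called at 7 (63.6%, against 71.5%). At annotated starts alone, at hand for 6 of the 11, H3K4me3 was called at COL5A3 and COL27A1. No H3K79me2 peak of any strength lay over the record and 5000 bp on each side of 6 fibrillar genes, COL1A1, COL1A2, COL2A1, COL3A1, COL5A1 and COL11A1. Over all genes 24.4% had no such peak.

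COL1A1 and COL1A2 encode the chains of collagen I, the main collagen of bone, skin and tendon. COL1A1 had an H3K4me3 peak of 1979 bp and 9.97-fold 288 bp inside its higher-coordinate end, over 35.6% of that window, and a weaker peak of 2.76-fold over 36.8% at the other end. COL1A2 had 1 H3K4me3 peak, of 1.98-fold outside its record, and no peak of either other mark. COL3A1, the gene of collagen III in skin and vessels, had no H3K4me3 or H3K79me2 peak and 1 H3K27me3 peak. The genes of the collagen I trimer thus differed in H3K4me3 and were alike in having no H3K79me2 peak.

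COL2A1, the main cartilage collagen gene, had no call, although its record held an H3K4me3 peak of 1662 bp and 12.0-fold, 3641 bp from the higher-coordinate end. H3K27me3 peaks of 3.76- and 3.85-fold overlapped it and followed it closely (chr12:48001859-48002483 and chr12:48002788-48002966). COL11A1, a cartilage fibril gene, had 166 H3K27me3 peaks covering 22% of its record and flanks, with none of the 3 marks called at an end. COL11A2 was called from an H3K4me3 peak of 8.09-fold that lies outside the record, 296 bp from its lower-coordinate end. That end is opposite the start of COL11A2, and H3K4me3 was not called at any of its annotated starts. An H3K4me3 peak of 20.5-fold at RXRB and SLC39A7 lies beyond its other end.

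The type V genes, whose product starts and limits the growth of fibrils, differed from each other. COL5A3 had H3K4me3 (5.92-fold, 36.4% of the window) together with H3K27me3 (3.58-fold, 34.0%). COL5A1 had H3K27me3 at 3.08-fold over 25% of the window, just enough for a call, and an H3K4me3 peak of 6.21-fold centred 3124 bp downstream of its start. COL27A1, a minor fibrillar collagen of cartilage, had H3K27me3 (4.23-fold, 35.2%) and just missed H3K4me3 with 23.4%. Its H3K4me3 peak of 11.1-fold was centred 310 bp downstream of the annotated start, which lies inside the record, so at the start alone H3K4me3 was called and H3K27me3 was not, the reverse of the calls at the record ends. An lncRNA, LOC105376225, has an end 170 bp inside the record. COL24A1 also lay just below the limit, with H3K4me3 over 21.6% of a window at 2.12-fold.

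The strongest H3K27me3 among collagens lay at 2 FACIT genes, COL9A1 and COL19A1, and not across the group. The median H3K27me3 cover of record and flanks was 3.61% for FACIT genes, against 5.43% for type VI and 7.07% for transmembrane genes. Of the 10 FACIT genes, H3K4me3 was called at 5 (50%, against 67.9% of all genes). H3K27me3 was called at 4 (40%, against 9.1%) and H3K79me2 at 2 (20%, against 50.9%). COL9A1 and COL19A1, neighbours on chromosome 6 with 2592 bp between their ends, had H3K27me3 at both ends of both records and no H3K4me3 call. COL9A1 encodes a chain of cartilage collagen IX, and COL19A1 a rare collagen of muscle and nerve. Over the record and flanks, 130 peaks covered 54.4% of COL9A1 and 372 peaks covered 38.0% of COL19A1. The strongest peak between the genes was 1873 bp long and 5.77-fold, with −log10 q of 5.33. These 2 genes and COL9A3 were the collagen genes that kept H3K27me3 with peaks of q at most 0.05, and these 2 kept it with −log10 q of 5 or more (4.55%, against 1.21% of all genes).

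H3K27me3 peaks up to 3000 bp apart were joined to find broad domains, which had to reach 10000 bp and be filled by peaks to 25% or more. Of the 44 collagen genes, 9 overlapped such a domain (20.5%), against 6.99% of all protein-coding genes. A domain of 137023 bp (chr6:70181729-70318751), number 33 by length of 5018, held all of COL9A1 and the end of COL19A1. The start of COL19A1 lay in another domain, of 66332 bp, and 8 domains overlapped this gene in all. COL11A1 overlapped 3 domains, the longest 52565 bp, and COL4A5 and COL4A6 shared one of 45382 bp over their starts. The remaining genes with a domain were COL5A1, COL14A1, COL23A1 and COL25A1. Longer records have more room for a domain, and no domain count was set against length.

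The other collagen IX genes differed from COL9A1. COL9A2 had H3K4me3 (4.34-fold, 39.1%) with H3K27me3 (3.08-fold, 30.9%) at its start. COL9A3 had H3K4me3 (3.51-fold, 35.5%) with H3K27me3 (4.62-fold, 50.6%) at its lower-coordinate end. COL14A1, a FACIT of tendon and skin, had H3K4me3 alone at 3.88-fold. COL20A1 and COL22A1 had no H3K4me3 peak over the record or flanks, as was the case for 5 collagen genes in all (11.4%, against 15.7% of all genes), the others being COL3A1, COL6A5 and COL9A1. COL21A1 had no call but a peak of 5.03-fold centred 23991 bp downstream of a start.

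**Figure D3:**
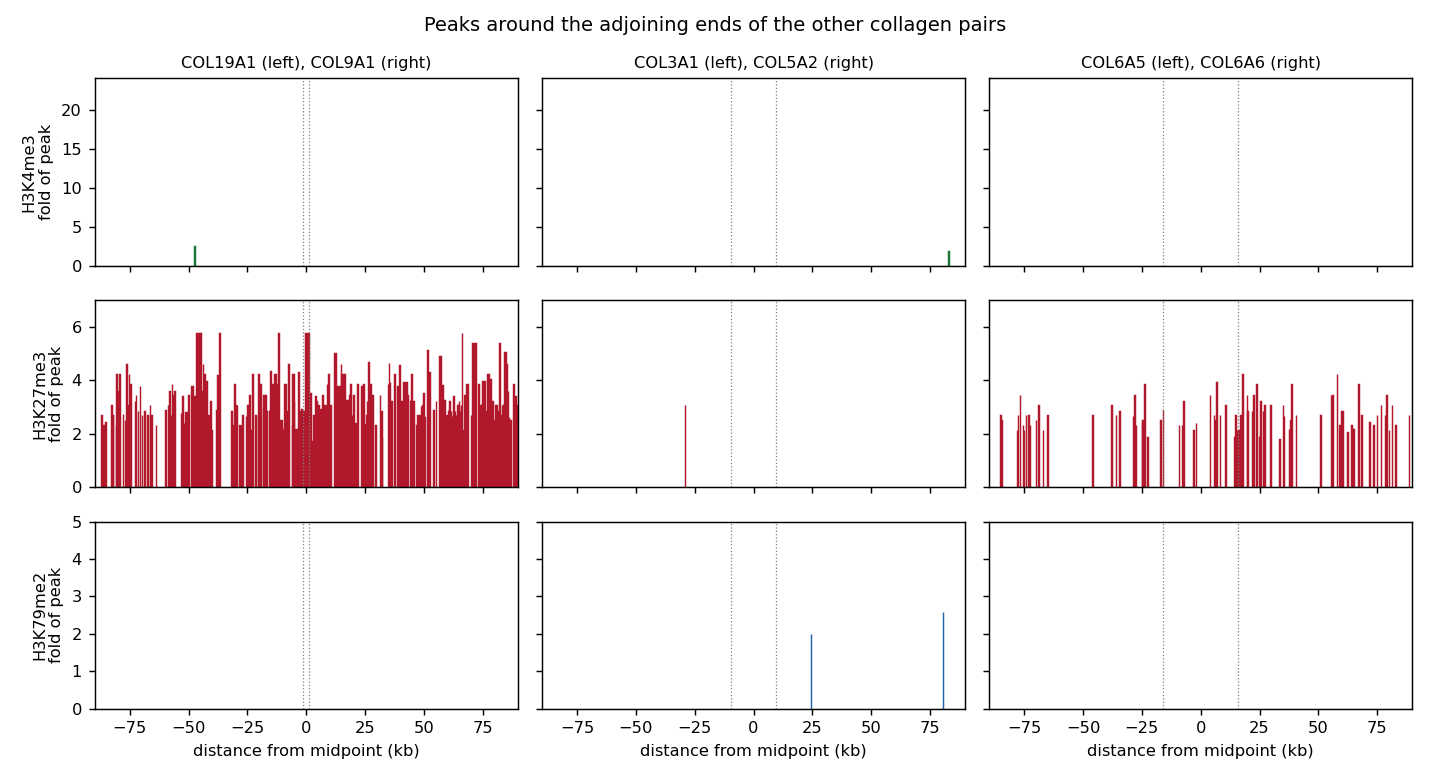
Peaks of each mark (rows) around the adjoining ends of the other 3 collagen pairs (columns), drawn to scale by distance from the midpoint between the record ends (kb), with a thin outline that keeps the narrowest peaks visible, with the height of each block giving the fold and dotted lines the record ends. H3K27me3 fills the stretch around COL19A1 and COL9A1 (68.5% of the window around the ends), no mark lies between COL3A1 and COL5A2, and scattered H3K27me3 peaks lie between COL6A5 and COL6A6 (10.5%).

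In all, 6 pairs of collagen genes had ends within 50000 bp of each other, and 4 of them within 5000 bp. The ends of COL3A1 and COL5A2 were 19151 bp apart, with 0 peaks of any mark between them. Those of COL6A5 and COL6A6 were 31873 bp apart, with 18 H3K27me3 peaks of up to 3.93-fold between them. H3K4me3 between the ends was found at the 3 type IV pairs, whose adjoining ends are starts, and at none of the other 3. The adjoining ends of COL19A1 and COL9A1 are those opposite their starts. No strand was at hand for COL3A1, COL5A2 and COL6A5. Starts are thus not compared with starts here, and the gaps of the other 3 pairs are wider.

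Collagen VI forms beaded microfibrils in most connective tissues. Of its 5 genes, 2 had H3K4me3 (40%, against 67.9% of all genes), COL6A1 (10.3-fold, 88.7% of the window) and COL6A2 (6.29-fold, 46.9%). COL6A2 also had H3K27me3 (3.46-fold, 25.7%). The lncRNA LOC105372841 has an end 204 bp from that of COL6A1, and COL6A2-DT one 467 bp from that of COL6A2. COL6A3 had an H3K4me3 peak of 3.36-fold centred 3832 bp downstream of its start and no call. COL6A5 had H3K27me3 over 72.3% of a window at 3.85-fold and no H3K4me3 peak, and COL6A6 had H3K27me3 over 20.4%, short of a call. Of the 5 genes, 4 had no H3K79me2 peak over the record and flanks (80%, against 24.4% of all genes).

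Among the transmembrane collagens, COL13A1, known from the neuromuscular junction, had H3K4me3 at 15.0-fold over 88.6% of the window at its start and neither other mark. The start of an lncRNA, LOC124902444, lies 135 bp outside that start, and the peak covers both. COL23A1 had H3K4me3 at 2.25-fold over 37.5%, at the end opposite its start, the H3K4me3 call that was lost at q at most 0.05. COL25A1, whose product binds amyloid plaques, had H3K27me3 at 2.98-fold over 34.7% of the window at the end opposite its start. The CpG-rich sequence at its start, shown above, lay under no peak of H3K4me3 within 1000 bp. COL8A2, the second short-chain gene of the corneal membrane, had H3K4me3 at 4.63-fold over 33.5% and H3K27me3 over 23.5%, just short of a call. COL26A1 and COL28A1 had no call, with H3K4me3 peaks of 9.25- and 9.40-fold centred 1057 and 111072 bp downstream of a start.

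The place of the strongest H3K4me3 peak was measured in the 29 collagen genes with an annotated start and a peak in the record. Its midpoint lay within 1500 bp of a start in 13 genes. It lay 1500 to 5000 bp downstream in 7 (COL4A5, COL5A1, COL6A3, COL11A1, COL12A1, COL16A1 and COL17A1) and more than 5000 bp downstream in 8. In COL4A6 it lay upstream, since the wide peak shared with COL4A5 spans both starts. The wide peaks of COL4A5, COL12A1, COL16A1 and COL17A1 reach over their starts, whereas those of COL5A1, COL6A3 and COL11A1 do not reach the window of 1000 bp around the start. A start within the record that the annotation used here lacks would be missed.

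**Figure D4:**
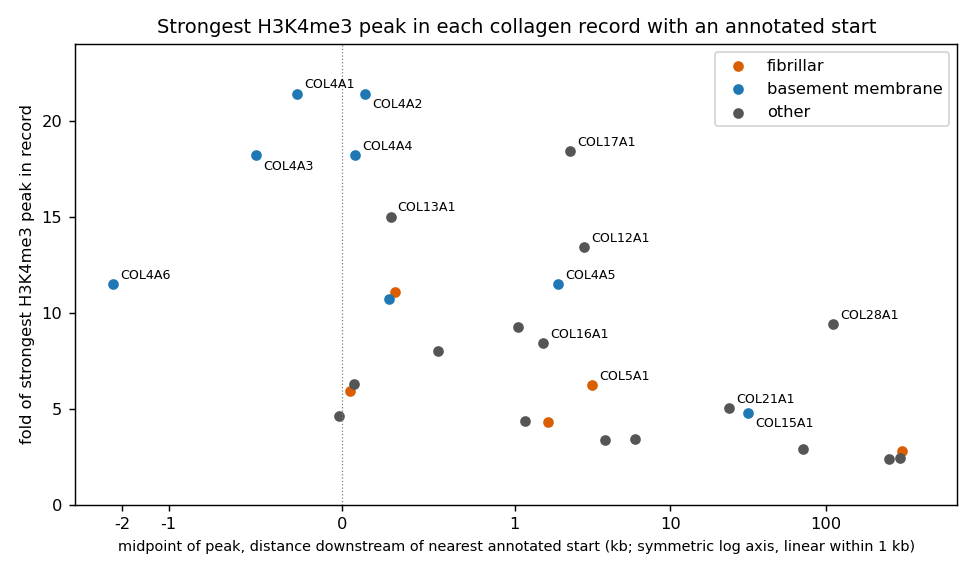
Fold of the strongest H3K4me3 peak in the record against the distance of its midpoint downstream of the nearest annotated start (kb, symmetric log axis that is linear within 1 kb), with 1 point for each of 29 collagen genes, coloured by class. Every peak above 10-fold lies within 5000 bp of a start, and COL28A1 has a peak of 9.40-fold 111072 bp away.

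Over the whole record with 5000 bp on each side, peaks of H3K4me3 covered a median of 2.72% of collagen genes, against 7.67% of all genes. H3K27me3 covered a median of 1.78%, against 0.49%, and H3K79me2 0.239%, against 14.1%. For genes with a record over 20000 bp, whose lengths are nearer to those of collagen genes, the medians were 6.34%, 0.492% and 19.0% in the same order of marks. The classes spread widely for H3K79me2. The medians were 16.4% for basement membrane genes, 0.216% for the others and 0% for fibrillar genes, with 4 basement membrane genes (COL4A1, COL4A2, COL4A5 and COL4A6) at 30.9% to 47.8% and the other 4 at up to 1.96%. For H3K27me3 the class medians were 1.33%, 2.81% and 0.81%, and for H3K4me3 4.41%, 2.32% and 1.19%, with overlapping ranges.

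**Figure D5:**
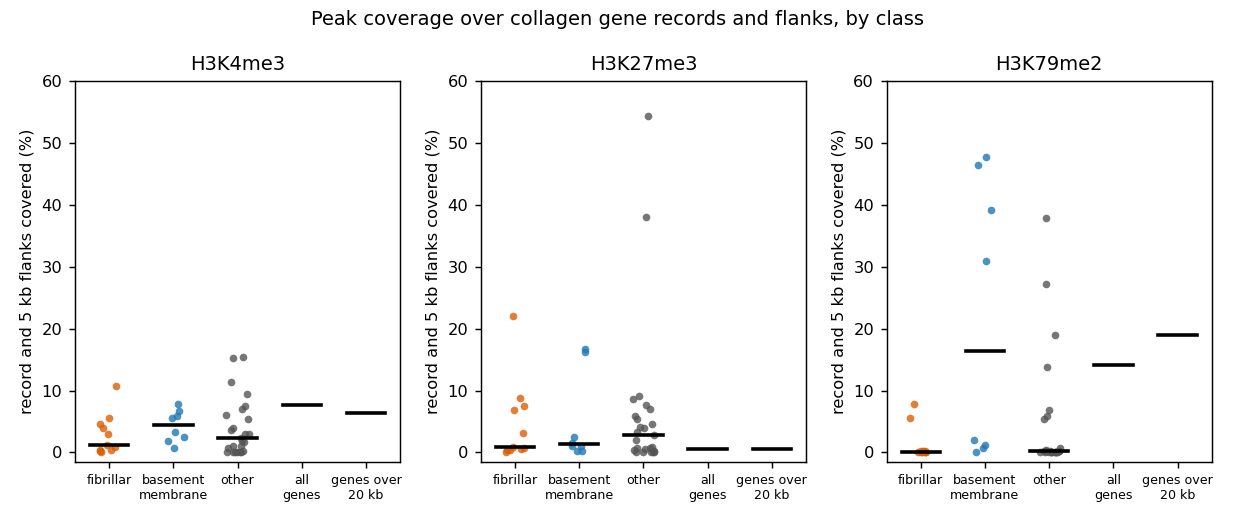
Share of the record with 5 kb on each side that is covered by peaks (%), with 1 point for each collagen gene by class and black lines for medians, beside the medians of all protein-coding genes and of those with a record over 20 kb. H3K79me2 covers a median of 16.4% of basement membrane genes, against 14.1% of all genes, and of fibrillar genes 0%.

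Promoter sequence was compared in the 32 collagen genes with an entry. The 17 with H3K4me3 at a start had a median of 17 CpG in the 250 bases before it, against 11 in the 15 without. A GC box was present in 12 (70.6%), against 5 (33.3%), a CCAAT box in 6 (35.3%), against 2 (13.3%), and a TATA box in 4 (23.5%), against 1 (6.67%). Matches were counted anywhere in the 250 bases and on either strand. In each type IV pair these stretches overlap, so shared bases and motifs count for both genes. COL4A1, COL4A2, COL4A5 and COL4A6 are among the 6 with a CCAAT box. Among all 15812 promoters of the same length, 55.8% held a GC box, 34.4% a CCAAT box, 9.36% a TATA box and 5% an AP-1 motif, with a median of 17 CpG. No collagen promoter held the AP-1 motif in this window. The genes overlapped in CpG content, as COL17A1 had H3K4me3 with 1 CpG, and COL15A1 had none at its start with 38.

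The genes that modify, fold and export collagen chains mostly carried H3K4me3 and H3K79me2. All 15 modification genes had H3K4me3, led by PLOD3, a lysyl hydroxylase (22.7-fold), and COLGALT1, a collagen galactosyltransferase (22-fold), and 12 had H3K79me2. P4HA3, P3H3 and COLGALT2 were without H3K79me2, and P3H3, a prolyl hydroxylase gene, had H3K27me3 (3.85-fold). All 4 folding and export genes had H3K4me3, among them the collagen chaperone SERPINH1 (19.1-fold) and the export receptor MIA3 (20.3-fold), and all but MIA2 had H3K79me2 at an end. H3K79me2 nonetheless covered 46.5% of the record and flanks of MIA2. Of 13 genes for processing and cross-linking, 10 had H3K4me3 (not PCOLCE, ADAMTS2 and LOXL4), 2 had H3K27me3 (TLL2 and ADAMTS14) and 2 had H3K79me2 (BMP1 and TLL1, both lost at q at most 0.05). The H3K27me3 calls of P3H3, TLL2 and ADAMTS14 were also lost at q at most 0.05. The shares with H3K4me3, H3K27me3 and H3K79me2 were 54.5%, 31.8% and 25% in collagen genes, 90.6%, 9.38% and 53.1% in these 32 genes together, and 67.9%, 9.1% and 50.9% in all genes. With peaks of q at most 0.05, H3K27me3 was left at 6.82% of collagen genes, at 0 of the 32 and at 5.52% of all genes.

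Among 10 collagen receptor genes, H3K4me3 was called at 6 (60%, against 67.9% of all genes). H3K79me2 was called at 7 (70%, against 50.9%) and H3K27me3 at 1 (10%, against 9.1%). With peaks of q at most 0.05, 5 kept H3K79me2 (against 43.3% of all genes), and ITGA1 and MRC2 lost it. The integrin subunit gene ITGB1 had H3K4me3 at 12.2-fold and H3K79me2 at 4.98-fold, and ITGA2 had them at 11.5- and 2.90-fold. ITGA11, an integrin subunit gene of fibroblasts, had all 3 marks, with H3K27me3 at 5.0-fold. DDR1, DDR2 and the blood cell receptors GP6 and LAIR1 had no H3K4me3 call. DDR1, a collagen receptor of epithelial cells, nonetheless had H3K79me2 (2.88-fold, 59.1% of the window) and H3K4me3 over 25.2% of its record and flanks, whereas H3K4me3 covered 3.06% for DDR2 and 0% for GP6 and LAIR1.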

How the data were processed

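Per the labels, MCF10A nuclei were sonicated, chromatin was precipitated with antibody and libraries followed TruSeq. The tools named in the submitters' processing notes are Bowtie2 2.3.1 and MACS2 2.1.1, and the build is hg38. The treatment of duplicates and the control of the peak caller are not given in the sources used here. As deposited by the authors, fold is the ratio of a peak to the background that the caller estimated, and the deposited −log10 p and −log10 q are the caller's own values. A p threshold of 0.05 stands in the peak names, together with the word broad for H3K4me3 and H3K79me2. Peaks were called per library. The lists held 67904 H3K4me3, 393324 H3K27me3 and 112870 H3K79me2 peaks, of which 67781, 393202 and 112731 on chromosomes 1 to 22 and X were used.

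Genes were the RefSeq records of GRCh38.p14, the same build. Starts, strands and promoter sequence came from another RefSeq table and were matched by gene identifier. Covered shares were computed in Python 3.11.15 with pandas 2.3.3 and numpy 2.4.6. The coverage function was tested on 1200 simulated windows, with 0 wrong. Any overlap of at least 1 bp assigned a peak to a record. A transcript model was not used, so exons and introns are not given.

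The genes, classes and lists were chosen with earlier results of these data known. All 44 genes are accounted for. Full values are given for those with H3K27me3 or H3K79me2 at an end, in adjoining pairs, among the 10 highest H3K4me3 folds, or with no H3K4me3 peak. Of the other lists, exceptions of up to 5 and up to 4 leading genes are named. The internal peaks of COL2A1, COL21A1, COL26A1 and COL28A1 were named after their values were seen. Alternatives were stricter peaks, other covered shares and windows, the start alone, another class for COL7A1 and COL17A1, no flank, a shorter pair distance and, chosen after seeing the data, H3K27me3 peaks joined across 3000 bp.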

Additional observations from a re-analysis of the deposited data

How the results depend on the processing

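Of 119 recomputed values, 74 moved by at most 1.5 times and 45 moved by more. None has a sign or a test. Counts were compared as numbers of genes, also for the start alone, which is known for fewer genes. Peaks of −log10 q of at least 1.3 left H3K27me3 at 3 collagen genes in place of 14, all 3 of the other class, 0 fibrillar and 0 basement membrane. They lowered the median covered share for H3K4me3 to 1.38% (0.626% in the other class) and for H3K27me3 to 0.207% (fibrillar 0.277%, basement membrane 0.272%, other 0.177%). For H3K79me2 the median came to 0% (basement membrane 4.43%, other 0%). At −log10 q of at least 5, H3K27me3 was left at 2 genes, both of the other class, and 0 of the remaining classes, and H3K79me2 at 2, with 0 of the basement membrane and 1 of the other class. At fold of at least 5, H3K4me3 was left at 8 of the other class, H3K27me3 at 2 genes, both of the other class, and H3K79me2 at 0 in every class. These losses follow from using fewer peaks.

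With 1 bp covered, H3K4me3 was called at 7 fibrillar genes, and H3K27me3 at 22 genes (7 fibrillar, 11 other). With 50% covered, H3K4me3 was called at 1 fibrillar and 8 other genes, and H3K27me3 at 4, all of the other class, 0 fibrillar and 0 basement membrane. The start alone, known for 32 genes, gave H3K4me3 at 2 of 6 fibrillar and 8 of 18 other genes, H3K27me3 at 4 of 18 other and H3K79me2 at 0 of 6 fibrillar genes, COL5A2 having no start at hand. As shares, fibrillar H3K4me3 went from 36.4% to 33.3% and fibrillar H3K79me2 from 9.09% to 0%. In the other class H3K4me3 went from 52% to 44.4% and H3K27me3 from 28% to 22.2%. Joined H3K27me3 peaks gave 5 fibrillar genes, and leaving out the flank a median of 1.67% for H3K4me3. The window of 2000 bp and the class of COL7A1 and COL17A1 moved no count by over 1.5 times. No paired analysis was possible because each mark has 1 library. Read depth is unknown, so weak peaks and missing peaks cannot be weighed by depth.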

Other observations

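Outside the windows at record ends, several long collagen genes held further H3K4me3 peaks. In COL28A1, a gene of the rest of the family with little known function, the peak of 9.40-fold and 462 bp (chr7:7424571-7425032) had −log10 q of 26.8 and no annotated start within 1000 bp. COL4A6 held a peak of 7468 bp and 5.91-fold, 39870 bp downstream of its shared start. COL16A1 held a peak of 7.41-fold at the annotated start of LOC101929444, in addition to the peak at its own start. COL5A2 held peaks of 4.94- and 4.48-fold deep inside its record. No cause of these peaks was examined.

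H3K4me3 peaks at neighbouring genes also reached into the flanks of collagen genes that were weakly marked themselves. COL8A2 had 4.63-fold at its start, and a peak of 22.9-fold at ADPRS reached into its flank. COL23A1 had a highest fold of 2.91 in its record, and a peak of 18.8-fold at PHYKPL, whose end is 4796 bp away, reached into its flank.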
